A study of Mus musculus with 9 samples.

Results

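The Reg genes encode small secreted proteins of the C-type lectin fold that the exocrine pancreas and the gut release. The 7 genes described here, Reg1, Reg2, Reg3a, Reg3b, Reg3d, Reg3g and Reg4, were taken by name from the 55453 gene symbols listed in the count files, and each was found once. They were measured by bulk RNA-seq in 9 libraries made from the whole pancreas of e18.5 mouse embryos of a mixed C57BL6 strain. There were 3 libraries labelled Pdx1:Cre;Grg3Grg4, 3 labelled Pdx1:Cre;Grg3 and 3 labelled Pdx1:Cre, which served as controls. These are called the Grg3Grg4, Grg3 and control libraries. Every group carried Pdx1:Cre, a transgene in which the Pdx1 promoter drives Cre recombinase in pancreatic progenitors and in parts of the neighbouring stomach and duodenum, so the controls share it. The labels name Grg3 and Grg4, the mouse Groucho co-repressors encoded by Tle3 and Tle4, without giving the alleles. The design text counts 3 embryos per genotype, and the p-values below measure the spread between these libraries.

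In the adult pancreas, acinar cells secrete Reg1 (lithostathine, also called pancreatic stone protein) together with digestive enzymes, and they raise Reg3b, the pancreatitis-associated protein, when the organ is injured. In the gut, Reg3b and Reg3g are antibacterial lectins of the epithelium, and interleukin 22 acting through STAT3 induces them. Reg4 is best known from gut epithelium and Reg2 from pancreas, where it is the close paralog of Reg1. EXTL3 is a proposed receptor for human REG3A.

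Reg1, Reg2 and the Reg3 genes form a cluster on chromosome 6 and Reg4 lies alone on chromosome 3. In GENCODE M21 on GRCm38 the cluster ran from Reg3b to Reg3g over 98.2 kb, at chr6:78370657-78468872, and held 0 other annotated genes. Reg3b, Reg3a, Reg2 and Reg1 are on the plus strand, Reg3d and Reg3g on the minus strand, and Reg4 spans chr3:98222156-98236748 on the plus strand. The coding sequences of Reg1 and Reg2 were 82.6% identical, those of Reg3b and Reg3a 76.5%, and those of Reg3b and Reg3g 76.4%. No stretch of 50 bases was shared between the annotated transcripts of any 2 Reg genes, although 32 of 876 such stretches of Reg1 and 39 of 899 of Reg2 also occur in genes outside the family.

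The 250 bases upstream of the transcription start are shown for 4 genes, because Reg1 and Reg3d are the members that passed the test below, Reg2 is the paralog of Reg1, and Reg3b holds all the motifs searched. The sequences are from RefSeq on GRCm38.p6, written in the direction of transcription, and all 7 members were matched in that table. They lie at chr6:78425733-78425982 (plus strand) for Reg1, chr6:78404905-78405154 (plus) for Reg2, chr6:78378866-78379115 (minus) for Reg3d and chr6:78370635-78370884 (plus) for Reg3b. Capitals mark the TATA box TATAAA, the E-box CACCTG preferred by the acinar PTF1 complex, and the palindrome TTCNNNGAA bound by STAT proteins.
Reg1: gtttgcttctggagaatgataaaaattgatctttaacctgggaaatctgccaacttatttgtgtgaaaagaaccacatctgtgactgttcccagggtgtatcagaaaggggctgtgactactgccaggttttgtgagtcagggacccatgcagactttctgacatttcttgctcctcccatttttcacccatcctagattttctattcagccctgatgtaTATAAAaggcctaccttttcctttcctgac
Reg2: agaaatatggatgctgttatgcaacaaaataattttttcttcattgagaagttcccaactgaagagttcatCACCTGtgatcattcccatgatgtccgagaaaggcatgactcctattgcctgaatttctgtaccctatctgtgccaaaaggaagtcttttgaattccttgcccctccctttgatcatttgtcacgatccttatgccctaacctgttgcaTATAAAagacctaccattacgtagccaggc
Reg3d: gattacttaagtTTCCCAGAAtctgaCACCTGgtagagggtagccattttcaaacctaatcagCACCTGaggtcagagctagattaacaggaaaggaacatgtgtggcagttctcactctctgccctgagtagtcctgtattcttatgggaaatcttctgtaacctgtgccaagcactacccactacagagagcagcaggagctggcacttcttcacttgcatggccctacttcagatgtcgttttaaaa
Reg3b: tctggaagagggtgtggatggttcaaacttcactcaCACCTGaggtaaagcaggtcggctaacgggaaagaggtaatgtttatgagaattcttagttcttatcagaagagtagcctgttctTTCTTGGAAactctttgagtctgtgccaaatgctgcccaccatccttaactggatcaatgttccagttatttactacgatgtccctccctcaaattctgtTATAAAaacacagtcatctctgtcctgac
Each motif was searched on both strands in the 250 bases upstream of 32851 genes, and no motif overlapped another in the 4 sequences shown. TATAAA was found in 4 of the 7 Reg genes, against 12.4% of all promoters searched. In Reg1 and Reg2 it starts 30 bases before the transcription start, in Reg3b 29 and in Reg3g 27. CACCTG was found in 5 of 7, against 17.2% of all, and Reg3d holds it at both 224 and 187 bases upstream. Reg1 and Reg3g have no CACCTG in this window. The STAT palindrome was found in 2 of 7, Reg3b and Reg3d, against 7.02% of all. These matches describe letters in a window and were not tied to binding, which was not measured.

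Gene counts summed to between 46817453 and 62744499 per library. Tle3, which encodes Grg3, stood at 135 ± 10.4 CPM (counts per 1e6 gene counts after TMM scaling) in Grg3Grg4 libraries, 153 ± 12.1 in Grg3 libraries and 64.8 ± 2.50 in controls (SD, n = 3 each). It was thus higher in both groups labelled Grg3 (log2 change 1.05 and 1.24, SE 0.09 in each, edgeR adjusted p = 0.000557 and 0.00027). Tle4, which encodes Grg4, stood at 11.6 ± 3.52 CPM in Grg3Grg4, 12.2 ± 2.10 in Grg3 and 7.77 ± 0.085 in control libraries, with every library of both Grg groups above every control, and its log2 changes over control of 0.58 (SE 0.21) and 0.65 (SE 0.21) did not pass (edgeR adjusted p = 0.155 and 0.132). Between Grg3Grg4 and Grg3 libraries the Tle4 change was -0.07 (SE 0.20, edgeR adjusted p = 0.886). A total count over the gene does not show whether an exon was removed, so every direction below holds between labels. Grg3Grg4 replicate 2 stood apart on the leading principal component, at 70 against 27.1 and 27 for the other two of its group, and its muscle markers summed to 2017 CPM. By Xist and Ddx3y, all 3 Grg3Grg4 libraries were male, whereas replicate 1 of the Grg3 and of the control libraries was male and the others were female. Liver markers moved with the groups: 8 of 10 were called higher in either comparison with controls. The shares of all genes called higher were 1.24% in Grg3Grg4 and 0.704% in Grg3 libraries. The liver list summed to 532 to 1687 CPM in Grg3Grg4 libraries, 84.5 to 1464 in Grg3 libraries and 6.65 to 14.3 in controls. Without control replicate 2 the liver calls numbered 0 in both comparisons.

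The first question was how abundant each member was. Per kb of exon, Reg1 was highest in every group, with 256 ± 26.8 CPM per kb in Grg3Grg4, 420 ± 224 in Grg3 and 910 ± 99.8 in control libraries. Reg3d came next, with 12.8 ± 0.942 CPM per kb in Grg3Grg4, 15.0 ± 5.18 in Grg3 and 48.1 ± 1.94 in control libraries, and Reg3b after it, with 2.18 ± 1.10, 7.25 ± 8.58 and 4.02 ± 2.60 in the same order of groups. In controls Reg1 exceeded Reg3d 18.9-fold and Reg3d exceeded Reg3b 12-fold, with no overlap between libraries. The other 4 members were below 1 CPM per kb in every group. Among them, Reg2, Reg3a and Reg3g overlapped between neighbours in controls, at 0.865, 0.509 and 0.412 CPM per kb. In Grg3 libraries the ranges of Reg3d and Reg3b also overlapped. By counts, Reg1 made up 92.8% to 95.4% of the reads on the family in every library.

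**Figure D1:**
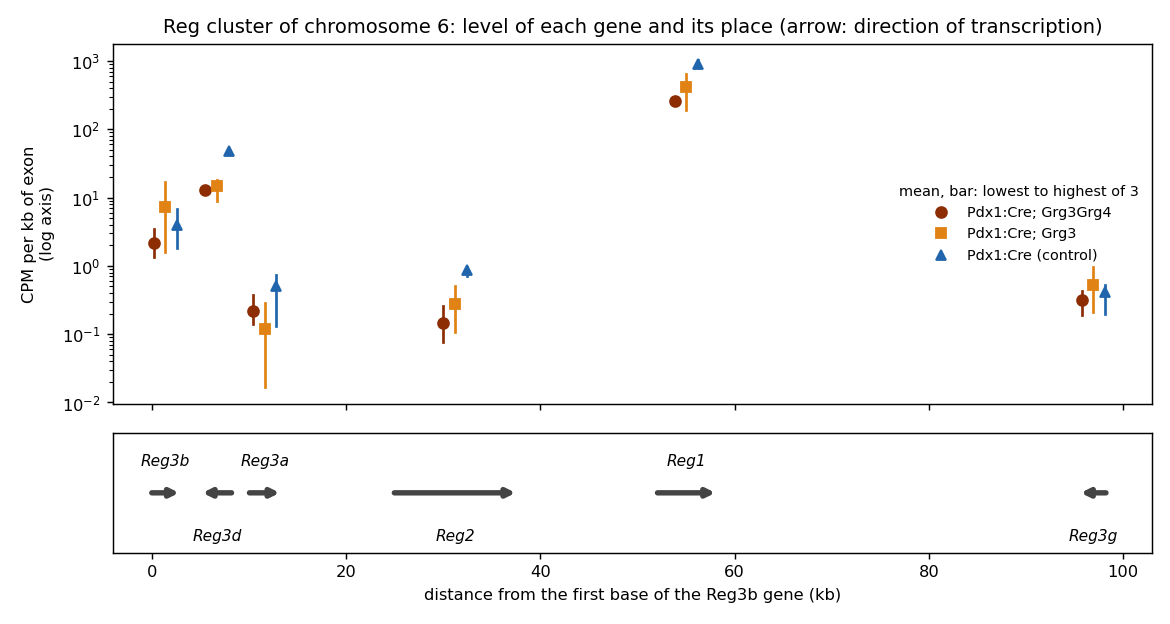
Level of the 6 clustered Reg genes against their place in the cluster. The upper panel gives CPM per kb of exon on a log axis, as the mean of 3 libraries with a bar from the lowest to the highest, and the 3 groups of a gene are set slightly apart for legibility. The lower panel gives each gene's extent in kb from the start of Reg3b. Reg1 and Reg3d have the highest means in each group, and Reg3d lies between Reg3b and Reg3a, with ranges that overlap those of Reg3b in the Grg3 libraries.

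Reg1 and Reg3d were lower in the Grg3Grg4 libraries than in controls, and Reg3d also in the Grg3 libraries. In the Grg3Grg4 comparison 2 of the 6 members tested were called lower at an adjusted p under 0.05, against 0.897% of all genes called lower and 2.14% called in either direction. In the Grg3 comparison 1 of 6 was called lower, against 0.694% of all genes called lower and 1.4% in either direction. At an unadjusted p under 0.05 stood 3 of 6 in the Grg3Grg4 comparison, against 20.2% of all genes, and 4 of 6 in the Grg3 comparison, against 19.1%. No member was called higher in either, against 1.24% and 0.704% of all genes. Reg4 did not pass the filter on low counts. Reg2 and Reg3a passed it on low counts, so the counts of members describe the 6 that passed and are not given as support. Both comparisons use the same 3 control libraries.

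Reg1 had 203, 245 and 246 CPM in Grg3Grg4 libraries, 580, 174 and 386 in Grg3 libraries and 756, 925 and 786 in controls. Every Grg3Grg4 and Grg3 library was below every control, and Grg3 replicate 1 came closest to the controls. The mean was 231 ± 24.2 CPM in Grg3Grg4, 380 ± 203 in Grg3 and 822 ± 90.3 in control libraries (SD, n = 3 each). Reg1 was 3.55-fold lower in Grg3Grg4 than in control libraries (log2 change -1.83, SE 0.34, edgeR adjusted p = 0.0296). The call ended when any 1 of the 6 libraries compared was left out (edgeR adjusted p 0.0588 to 0.135, log2 change -1.89 to -1.74). With a term for sex the log2 change was -2.18 and the edgeR adjusted p 0.080. In Grg3 libraries the log2 change was -1.11 (SE 0.33, edgeR adjusted p = 0.117), which did not pass the threshold. With no filter, or with DESeq2, Reg1 was called lower in Grg3 libraries as well. In a whole organ, fewer acinar cells and less RNA per cell cannot be told apart.

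Reg3d, which encodes a relative of the islet neogenesis-associated protein of hamster, had the smallest SE of the members tested. It had 10.8, 9.34 and 9.81 CPM in Grg3Grg4 libraries, 14.0, 7.08 and 14.2 in Grg3 libraries and 38.1, 38.9 and 35.9 in controls. The highest library of either Grg group was well below the lowest control. Reg3d fell 3.77-fold in Grg3Grg4 libraries (log2 change -1.91, SE 0.22, edgeR adjusted p = 0.00463) and 3.21-fold in Grg3 libraries (log2 change -1.68, SE 0.22, edgeR adjusted p = 0.00914). The Grg3Grg4 call held without each of the 9 libraries in turn. The Grg3 call was lost without control replicate 2 (edgeR adjusted p = 0.05001) or control replicate 3 (0.0541), with log2 changes of -1.66 and -1.71.

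**Figure D2:**
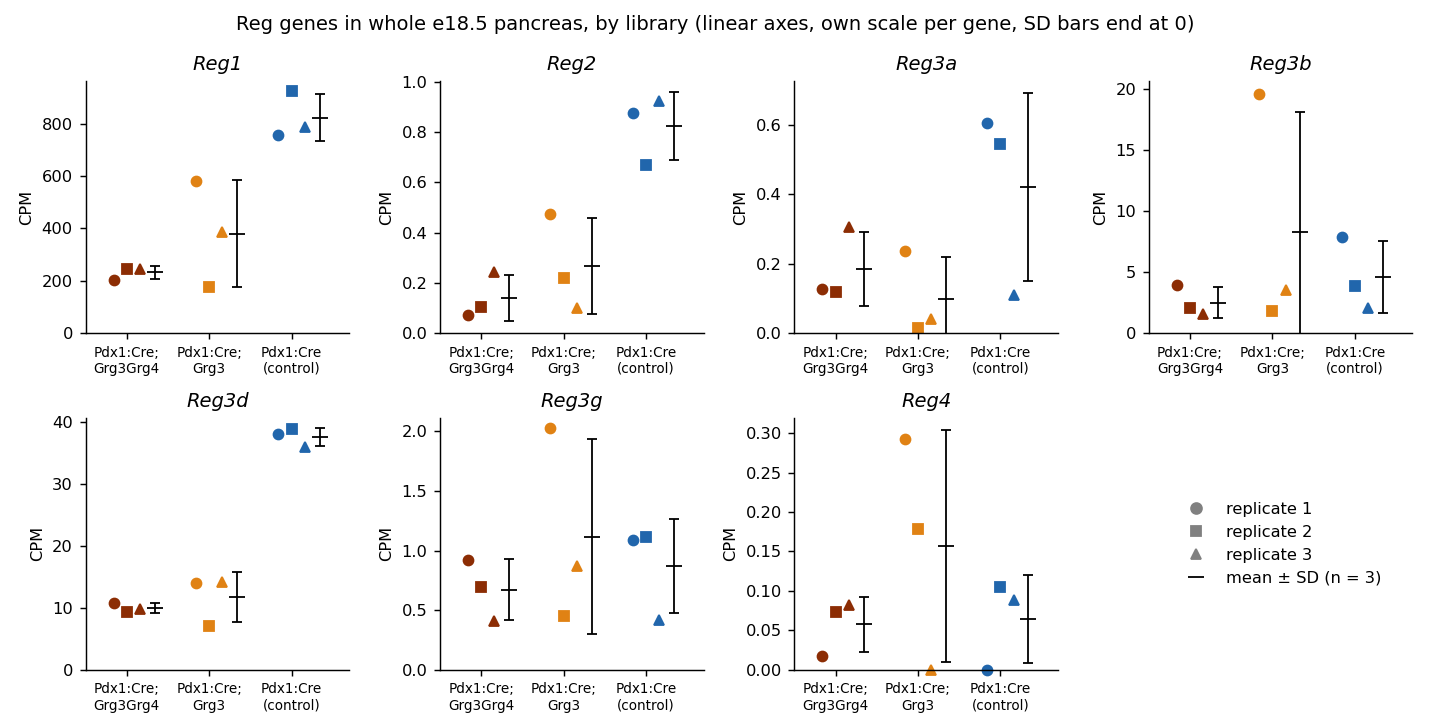
Level of each Reg gene in CPM by library, on a linear axis from 0 for each gene. Symbols are replicates 1 to 3, the bar is the mean ± SD of 3 libraries, and bars end at 0. Reg1 and Reg3d of the Grg3Grg4 and Grg3 libraries lie below all controls, whereas Reg3b and Reg3g of the Grg3 libraries scatter around one high library, replicate 1.

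Reg2 was rare. It had 4, 7 and 12 counts in Grg3Grg4 libraries, 26, 16 and 5 in Grg3 libraries and 42, 32 and 42 in controls, or 0.140 ± 0.092, 0.265 ± 0.191 and 0.824 ± 0.135 CPM. No library of either Grg group reached the lowest control. The log2 changes of -2.56 (SE 0.61) in Grg3Grg4 and -1.62 (SE 0.58) in Grg3 libraries did not pass the threshold (edgeR adjusted p = 0.0627 and 0.169). DESeq2 gave the Grg3Grg4 change an adjusted p of 0.00448. In all, 3 of 6 members had Grg3Grg4 libraries entirely below controls, against 14.2% of all genes, and 3 of 6 had Grg3 libraries entirely below controls, against 12.0%. They were Reg1, Reg2 and Reg3d in both. No tested member had Grg3Grg4 or Grg3 libraries entirely above controls, against 14.9% and 12.6% of all genes. The median log2 change of the 6 tested members was -1.52 in Grg3Grg4 and -1.37 in Grg3 libraries, beside 0.01 and 0.02 over all genes tested.

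The antimicrobial members did not pass the test in either direction. Reg3b had 3.91, 2.03 and 1.53 CPM in Grg3Grg4 libraries, 19.6, 1.80 and 3.49 in Grg3 libraries and 7.87, 3.83 and 2.07 in controls. Grg3 replicate 1 held more Reg3b than any other library, and replicate 1 was the highest of each group. Log2 changes were -0.88 (SE 0.81, edgeR adjusted p = 0.589) in Grg3Grg4 and 0.85 (SE 0.79, edgeR adjusted p = 0.602) in Grg3 libraries. Without Grg3 replicate 1 the Grg3 change turned to -0.80. The Grg3Grg4 change ran from -1.36 without Grg3Grg4 replicate 1 to -0.25 without control replicate 1, and was -2.23 with a term for sex.

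Reg3g had 0.920, 0.691 and 0.408 CPM in Grg3Grg4 libraries, 2.03, 0.453 and 0.872 in Grg3 libraries and 1.09, 1.11 and 0.418 in controls. Its log2 changes were -0.37 (SE 0.58) in Grg3Grg4 and 0.35 (SE 0.57) in Grg3 libraries (edgeR adjusted p = 0.77 and 0.79), and without Grg3 replicate 1 the Grg3 change was -0.40. Reads on Reg3b outnumbered those on Reg3g in every library, by 4.25, 2.94 and 3.75 times in Grg3Grg4, 9.64, 3.97 and 4.00 in Grg3 and 7.25, 3.45 and 4.95 in control libraries, a ratio of counts that is not corrected for length.

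Reg3a had 7, 8 and 15 counts in Grg3Grg4 libraries, 13, 1 and 2 in Grg3 libraries and 29, 26 and 5 in controls. The groups overlapped, and neither the change of -1.21 (SE 0.88, edgeR adjusted p = 0.481) in Grg3Grg4 nor that of -2.12 (SE 0.93, edgeR adjusted p = 0.251) in Grg3 libraries passed. With a library left out, the Reg3a change ran from -1.77 to -0.85 in Grg3Grg4 and from -3.93 to -1.56 in Grg3 libraries, the extreme of -3.93 without Grg3 replicate 1, and with a term for sex it was -2.36 in Grg3Grg4 libraries. Reg4 was at the edge of detection, with 1, 5 and 4 counts in Grg3Grg4 libraries, 16, 13 and 0 in Grg3 libraries and 0, 5 and 4 in controls. The summed Reg4 counts gave a ratio of 0.909 for Grg3Grg4 over control (exact 95% interval 0.332 to 2.53) and 2.57 for Grg3 over control (1.18 to 6.17). These intervals cover counting error only, and Grg3 replicate 3 had no read.

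Between the Grg3Grg4 and Grg3 libraries, none of the 6 members tested was called by edgeR, against 0.188% of all genes called in either direction, 0.0574% lower and 0.13% higher, and 0 had an unadjusted p under 0.05, against 17.3% of all genes. DESeq2 and limma voom called 0 of them as well. The libraries overlapped for every member tested, whereas 9.3% of all genes had Grg3Grg4 libraries entirely below Grg3 libraries and 11.8% entirely above. Reg1 had a log2 change of -0.71 (SE 0.33, edgeR adjusted p = 0.299), Reg3b of -1.73 (SE 0.81, edgeR adjusted p = 0.309) and Reg3d of -0.23 (SE 0.22, edgeR adjusted p = 0.614). Without Grg3 replicate 1 the changes were -0.08 for Reg3b and -0.27 for Reg1. A p above the threshold does not show that the groups had the same level.

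**Figure D3:**
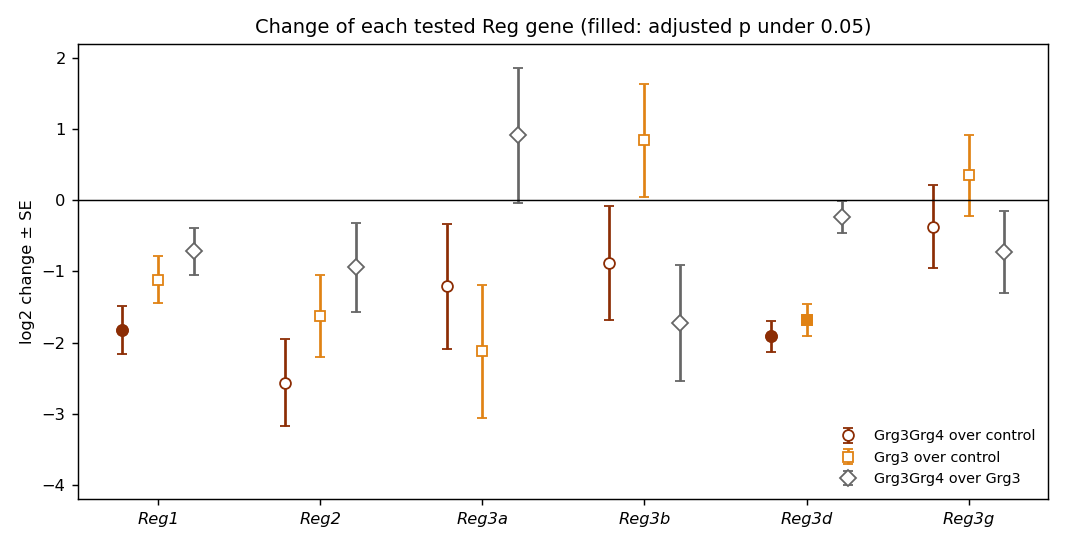
Log2 change of the 6 tested Reg genes in 3 comparisons, with error bars of 1 SE from the edgeR fit. Filled symbols passed an adjusted p of 0.05. Filled symbols are Reg1 for Grg3Grg4 over control and Reg3d for both Grg groups over control, and the other symbols are open.

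The digestive enzymes give a reference for the acinar programme of the same library. The acinar enzyme list of 36 genes also holds zymogen granule proteins that are not enzymes, Sycn and Zg16 among them. Of the 36 genes, 10 were called lower in Grg3Grg4 and 8 in Grg3 libraries, against 0.897% and 0.694% of all genes. Higher calls numbered 0, and the median log2 changes were -0.68 and -0.56, beside 0.01 and 0.02 over all genes. With 1 library left out, 3 to 10 of the 10 and 3 to 8 of the 8 remained called, the fewest without control replicate 2 for Grg3Grg4 and without Grg3 replicate 1 for Grg3. The enzymes called lower included the chymotrypsinogen-like Ctrl and the trypsinogens Prss1 and Prss3. Their log2 changes were -2.69, -3.03 and -2.44 in Grg3Grg4 and -2.49, -2.59 and -2.26 in Grg3 libraries. These falls were larger than those of Reg1 and Reg3d, and no other gene of the list fell as far as Reg3d. Together the 36 genes took 31.6%, 29.7% and 32.0% of gene counts in Grg3Grg4 libraries, 33.0%, 25.3% and 38.2% in Grg3 libraries and 38.0%, 40.7% and 39.2% in controls. Trypsinogen copies share sequence, so their counts are uncertain.

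Set against the summed counts of the acinar enzyme list, Reg1 and Reg3d were still lower. The sum weights each enzyme by its abundance, and the most abundant in controls were Ctrb1 and Pnliprp1 (122709 and 82544 CPM). Their log2 changes were -0.51 and -0.43 in Grg3Grg4 and -0.22 and -0.43 in Grg3 libraries. A lower ratio to this sum therefore does not place Reg1 or Reg3d below every enzyme. Reg1 had 0.683, 0.916 and 0.805 counts per 1000 enzyme counts in Grg3Grg4 libraries, 1.81, 0.798 and 0.926 in Grg3 libraries and 1.86, 1.97 and 1.82 in controls. The Grg3Grg4 libraries did not overlap controls, and Grg3 replicate 1 came close to the lowest control. The log2 ratio was -1.23 for Grg3Grg4 over control and -0.68 for Grg3 over control (exact permutation test, 2-sided p = 0.1 each), and 0.1 is the smallest p that 3 against 3 libraries allow. Reg3d had 0.0362, 0.0349 and 0.0321 counts per 1000 in Grg3Grg4 libraries, 0.0438, 0.0325 and 0.0340 in Grg3 libraries and 0.0938, 0.0829 and 0.0832 in controls. Its log2 ratios to control were -1.33 and -1.24 (exact permutation p = 0.1 each), and for Grg3Grg4 over Grg3 -0.09 (exact permutation p = 0.8). Reg2 gave log2 ratios of -2.00 (p = 0.1) and -1.07 (p = 0.2) to control in the same exact test. The sum of the 7 Reg genes gave -1.23 (exact permutation p = 0.1) and -0.67 (p = 0.2), and its Grg3 libraries overlapped controls. With a library left out, the Reg1 log2 ratio of Grg3 over control ran from -1.13 to -0.46.

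**Figure D4:**
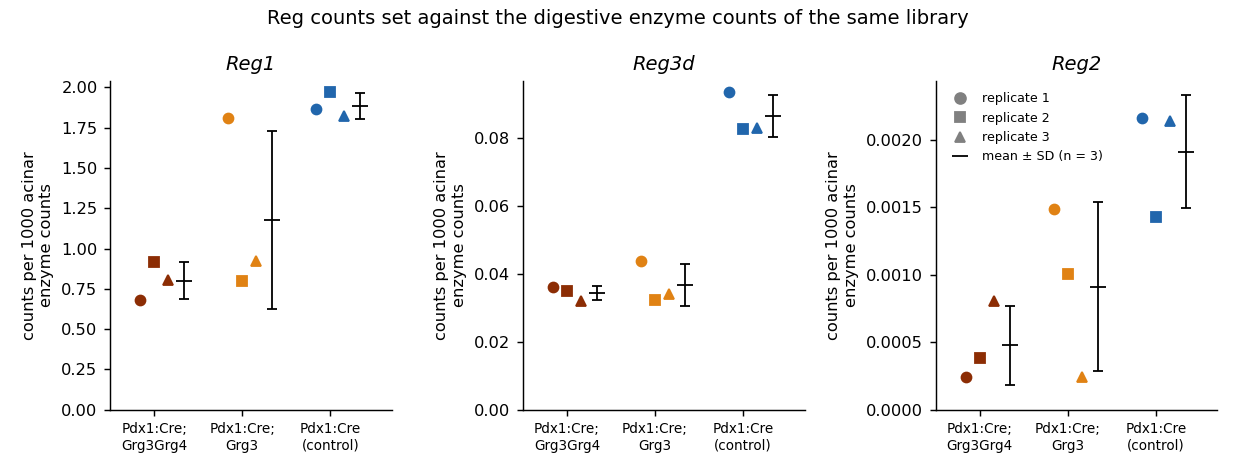
Counts of Reg1, Reg3d and Reg2 per 1000 counts of the 36 genes of the acinar enzyme list in the same library, with symbols for replicates and the mean ± SD of 3 libraries. For Reg3d all 6 Grg3Grg4 and Grg3 libraries lie at or below 0.0438 and the controls at or above 0.0829, whereas Reg1 of Grg3 replicate 1 reaches 1.81, near the controls.

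Among the other genes linked to acinar injury, acinar identity or Reg induction, 1 passed the edgeR test in a comparison with controls. Of 17 tested injury and stress genes outside the family, 1 was called lower in Grg3Grg4 libraries, Tff2 (a trefoil peptide), against 0.897% of all genes. Grg3 libraries gave 0 calls, against 1.4% of all genes in either direction. The median log2 changes were -0.07 in Grg3Grg4 and 0.20 in Grg3 libraries. In Grg3 libraries 6 of the 17 had an unadjusted edgeR p under 0.05, against 19.1% of all genes, and DESeq2 called 4 and limma voom 0. Of these 6, Tff2 had a log2 change below 0 (-0.84). The others were above 0: Anxa2 (0.38), Tff3 (1.95), Ddit3 (0.42), Gadd45a (0.62) and S100a6 (0.30). Tff2 stood at 30.9, 44.1 and 30.4 CPM in Grg3Grg4 libraries, 80.3, 57.3 and 52.1 in Grg3 libraries and 116, 134 and 89.4 in controls, and its log2 change in Grg3Grg4 was -1.69 (SE 0.21, edgeR adjusted p = 0.00692). The 6 acinar transcription factors, among them the PTF1 subunits Ptf1a and Rbpjl, gave 0 calls by edgeR, DESeq2 or limma voom in either comparison, with medians of -0.29 and -0.28. Of these factors, 2 in Grg3Grg4 and 0 in Grg3 libraries had an unadjusted edgeR p under 0.05, against 20.2% and 19.1% of all genes. The 2 moved in opposite directions, Nr5a2 lower (log2 change -0.39) and Rbpjl higher (0.50). Rbpjl had 837, 697 and 757 CPM in Grg3Grg4, 566, 373 and 692 in Grg3 and 640.7, 507.5 and 476.6 in control libraries.

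Among 17 tested genes of the cytokine and STAT3 pathway, edgeR called 0 in either comparison, with medians of -0.19 and -0.17. At an unadjusted edgeR p under 0.05 stood 5 in Grg3Grg4 and 7 in Grg3 libraries, against 20.2% and 19.1% of all genes. DESeq2 called 1 and 5, beside 1553 and 1463 calls over the 19166 genes kept, and limma voom called 1 and 0. The 1 gene called by both other tools in Grg3Grg4 libraries was Socs3, the feedback inhibitor of STAT3 signalling, with 11.3, 11.1 and 11.9 CPM in Grg3Grg4, 13.8, 18.3 and 14.8 in Grg3 and 16.5, 17.0 and 14.2 in control libraries (edgeR log2 change -0.48, SE 0.13, adjusted p = 0.0779). Il17a was listed at 0 in every library and Il22 in every library other than Grg3Grg4 replicate 2. The interleukin 22 receptor gene Il22ra1 had 30.8, 19.2 and 18.7 CPM in Grg3Grg4, 21.7, 9.71 and 24.5 in Grg3 and 39.5, 30.8 and 32.2 in control libraries (edgeR adjusted p = 0.33 and 0.165 against control). Extl3 had 197, 169 and 157 CPM in Grg3Grg4, 160, 135 and 210 in Grg3 and 219, 241 and 237 in control libraries (edgeR adjusted p = 0.168 and 0.144). Stat3 had log2 changes of -0.25 and -0.30 (edgeR adjusted p = 0.13 and 0.0984).

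Markers of the gut were checked because Reg3b, Reg3g and Reg4 are also gut genes. Of 13 tested intestinal markers, 1 rose in Grg3Grg4 libraries (Apob), against 1.24% of all genes called higher. In Grg3 libraries 3 rose (Clca1, Lgals4 and Apob), against 0.704%. None of these calls held without control replicate 2, where the edgeR adjusted p was 0.1 for Apob in Grg3Grg4 libraries and 0.05001, 0.141 and 0.174 for Clca1, Lgals4 and Apob in Grg3 libraries. Apob stood at 13.9, 12.3 and 26.1 CPM in Grg3Grg4, 12.6, 0.645 and 3.08 in Grg3 and 0.09 to 0.19 in control libraries. The liver list summed to 532, 762 and 1687 CPM in Grg3Grg4, 1464, 84.5 and 463 in Grg3 and 6.65 to 14.3 in control libraries. Whether the Apob reads came from gut or liver cells was not tested. The 17 intestinal markers summed to 133 to 185 CPM in Grg3Grg4 libraries, 86.9 to 163 in Grg3 libraries and 116 to 165 in controls. In Grg3 replicate 1, which had the most Reg3b, Reg3g and Reg4, 8 of the 17 markers were at their highest, among them the enterocyte gene Fabp2 at 3.35 CPM. Also among them were Cdx2 and Cdx1 at 0.494 and 0.238 CPM and Sis at 0.055, with 0 listed for Sis in the other libraries. Values this low rest on few reads. The other 9 markers were highest elsewhere, Krt20 and Vil1, the most abundant of the list, among them. In Grg3 replicate 1 Vil1 stood at 22.8 CPM, below the 32.4 to 41.1 of controls, and Krt20 at 83.6 CPM, within the 62.3 to 110.7 of controls. Grg3 replicate 1 was also highest for 7 of the 10 liver markers, and Grg3Grg4 replicate 3 for the other 3. The part of the gut markers, and of the liver and muscle markers, in the Reg values was not tested.

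The members differed in how they varied over the 9 libraries. Likeness was measured as the root mean square difference in log2 CPM after each gene was centred on its own mean, among genes with a mean of at least 1 CPM, and it is a description. Of 14738 genes, Reg3d was nearest to Reg1 (0.31), followed by Trim50 (0.33) and Mro (0.38). Nearest to Reg3d were Rpl34-ps1 (0.22), Prss3 (0.29) and Tmed11 (0.29), with Reg1 the 4th (0.31). Rpl34-ps1 is annotated as a processed pseudogene, and its reads can come from copies of its parent gene. It lies at chr6:71124610-71124963 and Prss3 at chr6:41373814-41377678, on the chromosome of the Reg cluster, whereas Tmed11 is on chromosome 5. Trim50 and Mro, near Reg1 by likeness, are on chromosomes 5 and 18. Rpl34-ps1 had a log2 change of -2.24 (SE 0.17) in Grg3Grg4 and -1.88 (SE 0.17) in Grg3 libraries. Of 18 other annotated genes within 1000 kb of the cluster, 1 was tested, Ctnna2. Its log2 changes were 0.16 in Grg3Grg4 and 0.63 in Grg3 libraries, and it was not called. The part of linked genetic background in the Reg values was not tested. For Reg2 the nearest were Cdhr1 (0.41), Ces1d (0.42) and Glp1r (0.47), the receptor of glucagon-like peptide 1, and Reg1 ranked 22nd.

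Reg3b was nearest to Gm2260 (0.58), Ccer2 (0.69) and mt-Nd3 (0.73), and Reg3g to Map2k3os (0.36), 4933427G23Rik (0.39) and AC122861.1 (0.39). Reg3b ranked 43rd for Reg3g, at 0.52. Reg3a was nearest to Tpsab1 (0.68), 1810034E14Rik (0.71) and Unc5a (0.72).

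**Figure D5:**
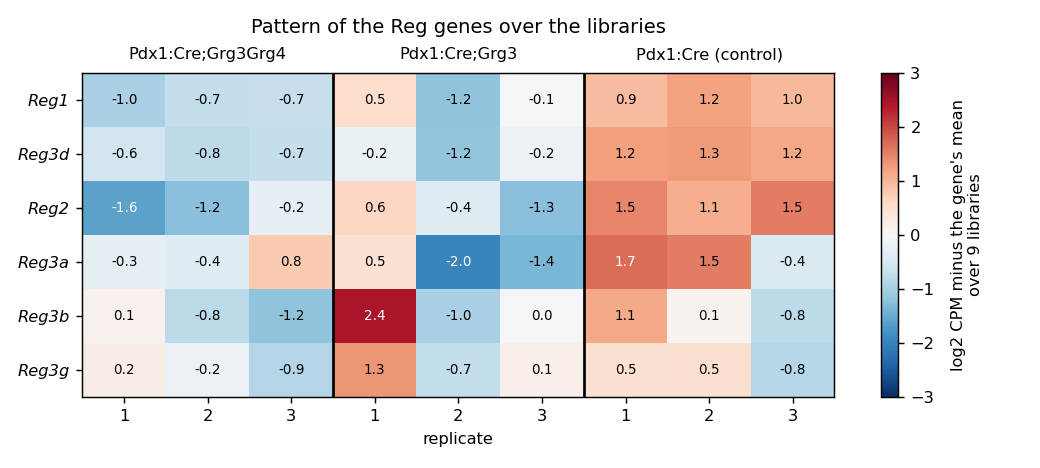
Log2 CPM of the 6 tested Reg genes minus the gene's mean over the 9 libraries, with columns for libraries and rows for genes. Red is above and blue below the gene's mean. Reg1, Reg3d and Reg2 are above their mean in all 3 controls, whereas Reg3b and Reg3g peak in Grg3 replicate 1.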

How the data were processed

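Total RNA of whole e18.5 pancreas was sequenced in 9 libraries, 3 per label. The authors deposited raw counts of reads per gene symbol with no normalization, 1 table per library. Per the submitters' processing notes, HTSeq, HISAT2, Trim Galore, FastQC, bedtools and DESeq2 were used, in roles that the notes leave out, with GRCm38 and mm10 as builds. Gene annotation and strand setting: not given in the sources used here. Rows that name no gene held 28.5% to 33.2% of reads and stayed out of library sizes and tests. By a chi-square test, no library repeated another of its group within counting error.

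The 3 comparisons were tested in 1 fit of edgeR 4.0.16 (R 4.3.3) with the 2-sided quasi-likelihood F test, TMM scaling and filterByExpr (minimum count 10, minimum total 15), which kept 19166 genes. Benjamini-Hochberg adjustment ran over all of them and a gene was called under 0.05. CPM are counts per 1e6 gene counts after TMM scaling, and levels between genes were divided by union exon length in GENCODE M21, which may differ from the annotation the authors used. Log2 CPM for likeness used a prior count of 2. Ratios to enzymes used exact permutation tests. The script was tested on simulated data. DESeq2 1.42.0 and limma 3.58.1 (voom), other filters and scalings, a term for sex, the replicate block and each library left out were alternatives.

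The 7 members, the motifs and the 11 gene lists were chosen with earlier results of these data known. Genes named were the members, the 3 nearest to each tested member by likeness, list members past the test, and markers bearing on a Reg value.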

Additional observations from a re-analysis of the deposited data

How the results depend on the processing

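Reg3d in Grg3Grg4 libraries kept its call under all 18 alternatives, and Reg1 there kept its direction in all 18 and its call in 10. The number of genes called in Grg3Grg4 over control was 410; it was 930 with no filter, 254 with the replicate block, 30 with a sex term, 750 with only the 6 libraries compared, 1553 with DESeq2 and 1033 with limma voom, and 50 to 825 with a library left out. In Grg3 over control it was 268, and 586 with no filter, 167 with the block, 169 with a sex term, 1463 with DESeq2, 421 with voom and 32 to 327 with a library left out. In Grg3Grg4 over Grg3 it was 36, and 228 with no filter, 75 with a stricter filter, 11 with the block, 4 with a sex term, 10 with 6 libraries, 1019 with DESeq2 and 6 to 49 with a library left out. Reg genes called in Grg3Grg4 over control were 1 in place of 2 with the block or a sex term (1 to 2 with a library left out), and in Grg3 over control 2 in place of 1 with no filter or DESeq2 (0 to 1 with a library left out). The added call in Grg3 over control was Reg1. With the replicate block Reg1 in Grg3Grg4 had an edgeR adjusted p of 0.052, and no other Reg call changed. Same-numbered libraries had correlations of -0.0858 to 0.094, so the numbers are not taken to pair them. With a library left out, the Grg3 over control log2 change ran from -0.80 to 1.48 for Reg3b and from -0.40 to 0.73 for Reg3g, and both were below 0 only without Grg3 replicate 1. In Grg3Grg4 over Grg3, Reg3g ran from -1.11 to 0.038 and the Reg3d to enzyme log2 ratio from -0.18 to 0.050, with the sign turned without the same library. With a library left out, Reg2 ran from -3.19 to -2.26 in Grg3Grg4 over control, from -2.31 to -1.25 in Grg3 over control and from -1.57 to -0.25 in Grg3Grg4 over Grg3. Tle4 in Grg3Grg4 over Grg3, -0.07, was 0.079 with a sex term and ran from -0.34 to 0.10 with a library left out. Reg2 in Grg3Grg4 over control passed with no filter, 6 libraries, DESeq2 and voom (adjusted p 0.00448 to 0.0351), and had no value under the stricter filter. By longest transcript Reg2 stood at 1.18 CPM per kb in controls, against 0.865 by union exons. The causes were not tested. Reg2, Reg3a, Reg3g and Reg4 rest on few reads, and differences at their depth are poorly resolved.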

Other observations

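Of 11 islet endocrine genes, 2 were called lower by edgeR in Grg3Grg4 libraries, against 0.897% of all genes: the insulin gene Ins2 and the beta-cell factor Mafa. The log2 change was below 0 for all 11 there, with a median of -0.88. At an unadjusted edgeR p under 0.05 stood 8, against 20.2% of all genes, and DESeq2 and limma voom called 6 each. By edgeR, 0 passed in Grg3 libraries, where 2 had an unadjusted edgeR p under 0.05, against 19.1% of all genes. DESeq2 called 1 there and limma voom 0, with a median log2 change of -0.29. Ins2 stood at 734, 654 and 1418 CPM in Grg3Grg4 libraries, 2354, 1757 and 1299 in Grg3 libraries and 2489, 2873 and 2699 in controls (log2 change in Grg3Grg4 -1.52, edgeR adjusted p = 0.0353, and neither islet call held without Grg3Grg4 replicate 1). Of 7 tested stomach genes, 1 was called higher in each comparison, against 1.24% of all genes in Grg3Grg4 and 0.704% in Grg3 libraries. It was Nkx6-3, a homeobox gene of the stomach antrum, in both. Nkx6-3 had 7.90 CPM on average in Grg3Grg4, 12.3 in Grg3 and 0.282 in control libraries, and it stayed called with each library left out. edgeR called 0 of the 7 duct, 10 macrophage and leukocyte and 7 muscle genes in either comparison, with 3, 2 and 7 of them at an unadjusted p under 0.05 in Grg3Grg4 libraries and 1, 2 and 3 in Grg3 libraries. The shares of all genes at that unadjusted edgeR p were 20.2% and 19.1%. DESeq2 called 2, 1 and 2 in Grg3Grg4 and 0, 1 and 2 in Grg3 libraries, and limma voom 1 of each list in Grg3Grg4 and 0 in Grg3 libraries. The median log2 changes of these 3 lists were -0.20, 0.33 and 7.29 in Grg3Grg4 libraries and 0.01, 0.48 and 3.23 in Grg3 libraries.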
